A study of Mus musculus with 48 samples.

Results

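The axon guidance ligands and receptors described here are the genes of the semaphorin, plexin, neuropilin, ephrin, Eph, Slit, Robo, netrin and Unc5 families, with *Dcc*. Their symbols had to be rows of the deposited count table, with at least 30 UMIs summed over all cells. The table held 65 such rows, and 64 of its 16510 genes were kept: 19 semaphorins, 11 plexins and neuropilins, 7 ephrins, 13 Eph receptors, 7 genes of the Slit and Robo families, and 7 genes made up of the netrins, *Dcc* and *Unc5*. *Ntn4* stood just outside the minimum with 23 UMIs, and the members nearest above it were *Plxnb3* with 77 and *Epha6* with 78 UMIs. The rule used no expression difference.

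A growing axon reads its path from proteins on neighbouring cells and in the matrix. Ephrins are held in the membrane and bind Eph receptor tyrosine kinases, semaphorins bind plexins directly or through neuropilins, Slits bind Robo receptors and mostly repel, and netrins attract through Dcc and repel through Unc5 receptors. The same proteins also guide migrating neurons and growing blood vessels, and in the developing forebrain they set borders between cell groups and steer tracts.

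Cells were taken from mouse hypothalamus at E18.5, shortly before birth, and measured by droplet single-cell RNA sequencing, in which a UMI tags 1 captured transcript molecule at its 3′ end. Control embryos were Eed fl/fl and mutant embryos were Eed fl/fl; Sox1-Cre/+ (Eed-cKO), on a mixed B6:129S1 background, so both carried 2 floxed alleles and the Cre was carried by the mutants alone. *Eed* encodes a subunit of the polycomb repressive complex PRC2, which places repressive methylation on histones, and Sox1-Cre acts in the early neural plate and its descendants. The authors took vascular and immune cells as not targeted by this Cre, and deletion was not checked here in any cell type. The 48 libraries held 14121 cells from 6 control embryos (2 female, 4 male) and 9 Eed-cKO embryos (5 female, 4 male), and the embryo was the replicate. The litters, read from the start of the library names, numbered 4 for control and 6 for Eed-cKO, with none in common. Genotype and litter therefore cannot be told apart.

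The table carried no cell types, so cells were clustered, and 16 clusters holding 10073 cells were called neurons from their markers. A control embryo held 663 to 1076 neurons and an Eed-cKO embryo 141 to 849, and the medians per embryo were 4318 to 6981 UMIs per neuron in control and 3277 to 7096 in Eed-cKO. At most 2 cell barcodes were shared by any pair of libraries. *Eed* itself was measured at 28.2 to 33.2 CPM (a gene's UMIs scaled to a common total) in control neurons and 17.8 to 27.4 CPM in Eed-cKO neurons, with no overlap, but 3′ tags lie outside the floxed exons 3 to 6, so this level does not check the deletion. Of the 16 neuron clusters, 3 were nearly confined to 1 genotype. Cluster 0, led by *Tfap2b*, *Hoxc10* and *Lamp5*, held 1443 Eed-cKO and 12 control cells, and made up 24 to 38.6% of the neurons of each Eed-cKO embryo. Cluster 21, in which *Alas2*, *Cga* and *Pomc* stood among the leading genes, held 243 Eed-cKO and 2 control cells, of which 65, 93 and 79 came from Eed-cKO embryos 4, 5 and 9. It was counted with the neurons because 9 of the 10 neuron markers were at least 2 times higher there than in the non-neuronal clusters, although none of them led it. Cluster 16, led by *Gbx2*, *Lhx9* and *Tcf7l2*, held 344 control and 26 Eed-cKO cells. Together these clusters held 6.87% of control and 35.2% of Eed-cKO neurons, so each result in neurons is also given for the 13 clusters in which both genotypes held at least 10% of the cells (shared clusters), a restriction added once the data had been looked at.

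The guidance genes covered a wide range of levels in control neurons. A UMI stands for 1 molecule whatever its length, so levels are compared as CPM without a correction for length. *Efnb3*, a transmembrane ephrin, was the most abundant member with a median of 480 CPM over the 6 embryos, followed by the neuropilin *Nrp1*, a co-receptor of secreted semaphorins, with 362 CPM. *Dcc*, the netrin receptor, led its family with 152 CPM, the membrane-bound semaphorin *Sema4g* the semaphorins with 117 CPM, *Robo1* the Slit and Robo genes with 113 CPM, and *Epha5*, a receptor of ephrin-A ligands, the Eph receptors with 111 CPM. At the other end, *Epha2* and *Plxnb3* had a median of 0 CPM, and *Robo4* and *Ephb4*, both known from blood vessels, stood at 0.296 and 0.278 CPM.

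Members differed in the cell type that held most of their RNA. In the 4 cell types with at least 10 cells in each of the 6 control embryos, 30 of the 64 members were highest in neurons, 15 in astrocytes, 12 in endothelial cells and 7 in the cluster of cycling progenitors and the oligodendrocyte lineage. *Plxnd1* (median 298 CPM), *Efna1* (134 CPM), *Epha2* (40.7 CPM) and the vascular netrin receptor *Unc5b* (198 CPM) were highest in endothelial cells, against 1.23, 0.178, 0 and 10.3 CPM in neurons. *Plxnb1* (251 CPM), *Plxnb2* (205 CPM), *Ntn1* (217 CPM) and *Robo1* (299 CPM) were highest in astrocytes. Of the 20 members that differ between the genotypes in neurons, described next, 7 of the 8 lower ones and 4 of the 12 higher ones were highest in neurons, and the exception among the lower ones, *Efnb2*, was highest in endothelial cells. With the scarcer cell types counted too, which had enough cells in only 2 or 3 control embryos each (among them tanycytes, pericytes and vascular leptomeningeal cells), 15 of the 64 members were highest in neurons, and so were 4 of the 8 lower and 0 of the 12 higher ones. The summed level of 8 astrocyte markers in neurons was 154 to 194 CPM in control and 211 to 511 CPM in Eed-cKO, without overlap, and its part in the changes of members that astrocytes express was not tested. These orders are descriptions, since the cell types come from clusters of the same cells.

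The main question was which guidance genes differ between control and Eed-cKO neurons. UMIs were summed per embryo and compared with edgeR's quasi-likelihood test, with Benjamini-Hochberg adjustment over all genes tested at a threshold of 0.05. Of the 64 members, 62 could be tested, since *Plxnb3* and *Robo4* had too few UMIs. Of these, 12 were higher and 8 were lower in Eed-cKO neurons, where 9.24% of all 15242 genes tested were higher and 7.92% were lower. The members had no common direction: their median log2 fold change was -0.01 against 0.01 for all genes, and their median absolute change was 0.20 against 0.19. Among 31 receptors 6 were higher and 6 lower, and among 31 ligands 6 were higher and 2 lower. The plot of levels per embryo shows the called members, and the plot of changes by family shows all 62.

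**Figure D1:**
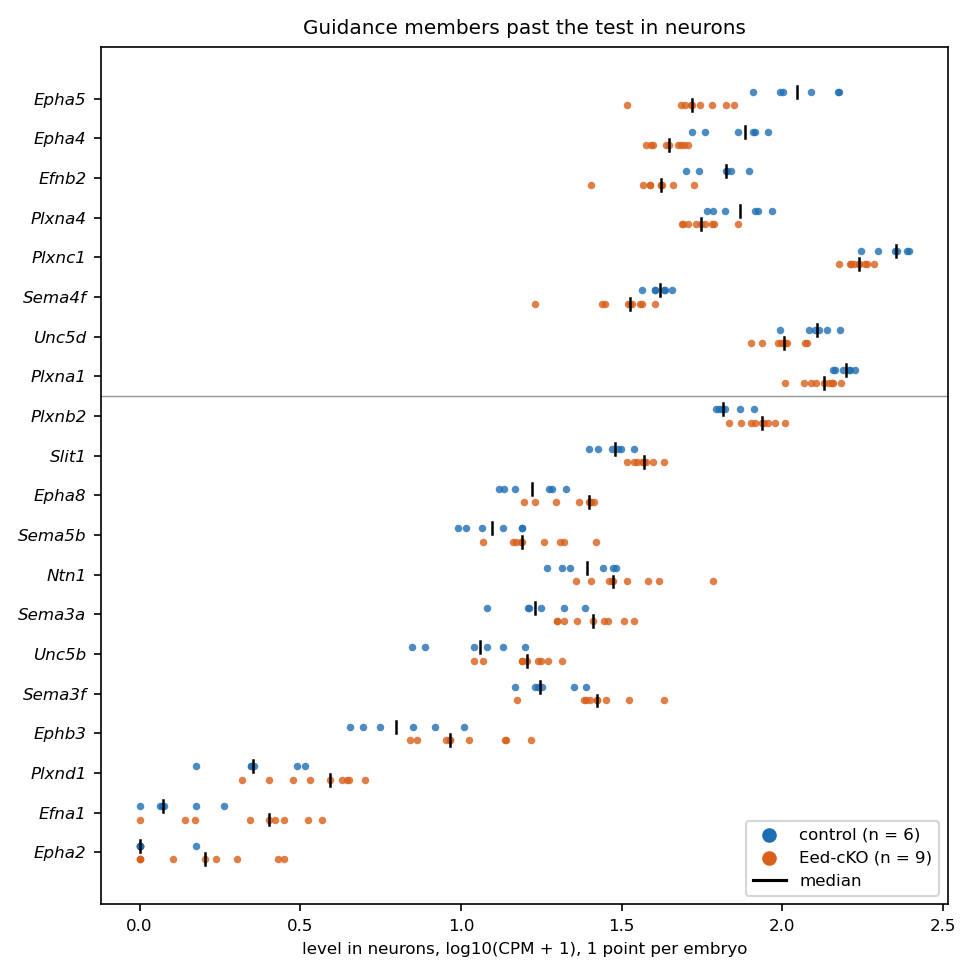
Level of each called member in neurons, as log10 of CPM + 1 on the x axis, with 1 point per embryo (blue: 6 control, orange: 9 Eed-cKO) and a black bar at the median. The 8 members above the grey line were lower and the 12 below it higher in Eed-cKO, and the embryos of the genotypes do not overlap for *Epha5* and *Epha4*.

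**Figure D2:**
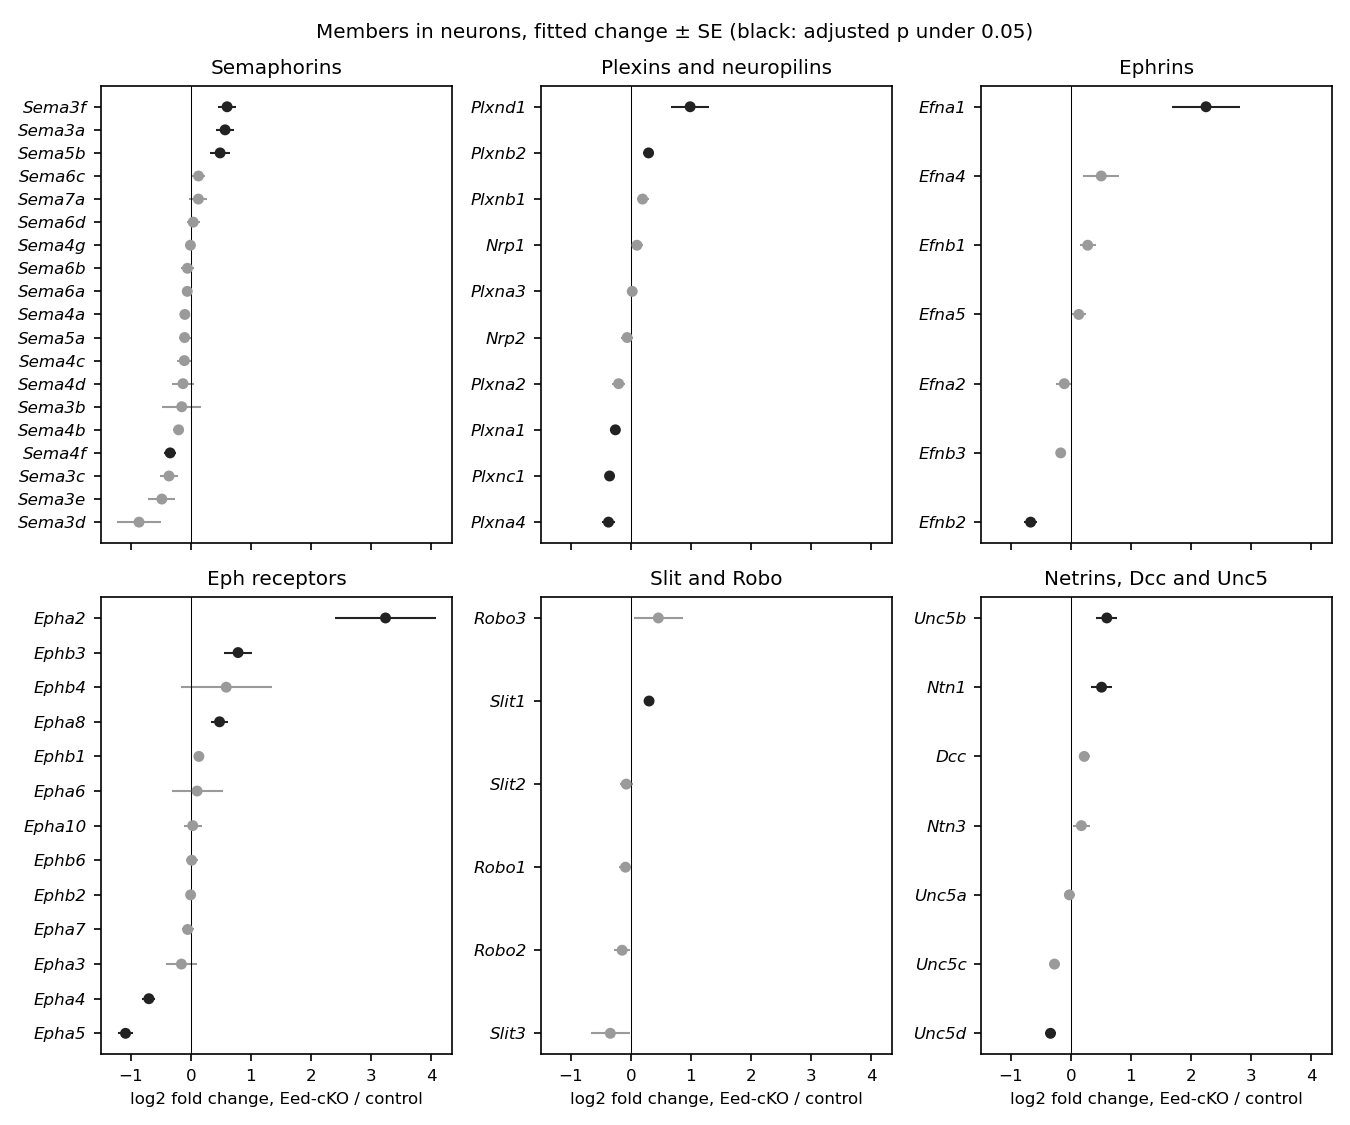
Fitted log2 fold change (Eed-cKO over control) ± SE of the 62 tested members in neurons, by family, with members past an adjusted p of 0.05 in black and the others in grey. Most members lie near 0, *Epha5* at -1.09 is the lowest, and *Epha2* at 3.24 and *Efna1* at 2.25 rest on few UMIs.

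The Eph receptors held the clearest falls. *Epha5* was at 79.8 to 149 CPM in control neurons (median 111) and at 31.9 to 69.5 CPM in Eed-cKO neurons (median 51.3), so every Eed-cKO embryo lay below every control embryo. Its log2 fold change was -1.09 ± 0.13 (SE, adjusted p = 7.6e-07). *Epha4*, a receptor that binds both ephrin classes, was at 51.3 to 89.0 CPM in control (median 75.8) and 36.7 to 49.9 CPM in Eed-cKO (median 43.5), again without overlap, and fell by 0.70 on the log2 scale (SE 0.11, adjusted p = 6.2e-05). Both calls held under each other setting tried and without each of the 15 embryos in turn. No other Eph receptor was called lower. *Epha8*, another receptor of ephrin-A ligands, rose by 0.48 ± 0.14 (adjusted p = 0.019), from a median of 15.8 to 24 CPM with overlapping ranges, and its call was lost without control embryo 3 (adjusted p = 0.052). *Ephb3*, a receptor of ephrin-B ligands, rose by 0.79 ± 0.23 (adjusted p = 0.019) from a median of 5.34 to 8.24 CPM, a call lost without control embryo 2 (adjusted p = 0.053). The abundant receptors *Epha7*, *Ephb1* and *Ephb2* had changes of -0.05, 0.14 and 0.00 and did not pass the test.

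Of the ephrins, *Efnb2* was lower. Its level was 49.0 to 77.4 CPM in control (median 65.8) and 24.4 to 52.0 CPM in Eed-cKO (median 41.0), with 8 of 9 Eed-cKO embryos below every control embryo, and it fell by 0.67 on the log2 scale (SE 0.11, adjusted p = 1.8e-04). *Efnb3*, the most abundant member, was at 440 to 521 CPM in control and 377 to 459 CPM in Eed-cKO, a change of -0.17 ± 0.06 that missed the threshold (adjusted p = 0.067). *Efna5*, the most abundant ephrin-A, was at a median of 178 CPM in control and 213 CPM in Eed-cKO (log2 change 0.13, adjusted p = 0.46).

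The largest fitted changes belonged to *Epha2* (3.24 ± 0.84, adjusted p = 0.0087) and its ligand *Efna1* (2.25 ± 0.56, adjusted p = 0.0063), both at the edge of detection. *Efna1* had 9 UMIs in all control neurons and 41 in all Eed-cKO neurons, seen in 5 of 6 and 8 of 9 embryos, a ratio of 5.54 per total UMI (exact 95% interval 2.65 to 13, counting error only). *Epha2* had 2 UMIs in control, both in embryo 4, and 25 in Eed-cKO, in 6 of 9 embryos, a ratio of 15.2 (3.79 to 132). Cluster 21 held 14 of the 25 Eed-cKO UMIs of *Epha2*, at 7.38 CPM, and the highest level of *Efna1*, at 6.33 CPM. *Plxnd1*, the receptor of *Sema3e*, likewise rose from a median of 1.25 to 2.90 CPM (0.99 ± 0.31, adjusted p = 0.031), a call lost when control embryo 1, 2, 4 or 6 or Eed-cKO embryo 1, 3, 4 or 5 was left out (adjusted p up to 0.071). The endothelial level of these 3 genes exceeded their neuronal level, as it did for *Unc5b* and for members that were not called, such as *Ephb4*. The summed level of 6 endothelial markers in neurons was 12.0 to 19.5 CPM in control and 14.5 to 32.9 CPM in Eed-cKO, with none of the markers at 0, and that of 6 vascular leptomeningeal markers was 3.15 to 9.02 CPM in control and 8.22 to 222 CPM in Eed-cKO. Their part in the result was not tested.

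Among the semaphorins, 3 rose and 1 fell, while 15 did not pass the test. *Sema3a*, a secreted semaphorin that repels axons through *Nrp1*, was at 11 to 23.4 CPM in control (median 16) and 18.9 to 33.5 CPM in Eed-cKO (median 24.7), and 5 of 9 Eed-cKO embryos exceeded every control embryo (0.57 ± 0.15, adjusted p = 0.010). *Sema3f*, the secreted ligand of *Nrp2*, rose from a median of 16.6 to 25.4 CPM (0.60 ± 0.14, adjusted p = 0.0048). *Sema5b*, a transmembrane semaphorin with thrombospondin repeats, rose from 11.6 to 14.5 CPM (0.49 ± 0.16, adjusted p = 0.038), but lost its call when control embryo 1, 2, 3 or 6 or Eed-cKO embryo 3, 4 or 5 was left out (adjusted p up to 0.095). Its control level was 161 CPM in the cluster of cycling progenitors and the oligodendrocyte lineage. In neurons the summed level of 6 oligodendrocyte lineage markers was 2.62 to 11.7 CPM in control and 4.66 to 34.7 CPM in Eed-cKO. That of 7 cycling progenitor markers was 8.06 to 14.3 and 12.3 to 57.5 CPM, and both sums overlapped between the genotypes. The part of these markers in the result was not tested. *Sema4f* was the one semaphorin that fell, from a median of 40.5 to 32.6 CPM (-0.34 ± 0.10, adjusted p = 0.022), with 8 of 9 Eed-cKO embryos below every control embryo and the call lost without control embryo 3 or Eed-cKO embryo 5 (adjusted p up to 0.053). The leading semaphorins *Sema4g*, *Sema6a* and *Sema4a* changed by -0.01, -0.06 and -0.10 and did not pass.

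Of the plexins 3 were lower and 2, *Plxnd1* and *Plxnb2*, higher. *Plxnc1*, the receptor of *Sema7a*, was at 174 to 247 CPM in control (median 224) and 149 to 192 CPM in Eed-cKO (median 172), a fall of 0.35 on the log2 scale (SE 0.08, adjusted p = 0.0021). *Plxna4* fell by 0.37 (SE 0.11, adjusted p = 0.016) and *Plxna1* by 0.26 (SE 0.08, adjusted p = 0.020), both partners of neuropilins, and each call was lost without control embryo 1, and without embryo 2 for *Plxna4* and embryo 3 for *Plxna1* (adjusted p up to 0.064 and 0.060). *Plxnb2*, a receptor of class 4 semaphorins, rose by 0.30 ± 0.09 (adjusted p = 0.018) from a median of 64.5 to 85.3 CPM. The neuropilins did not pass: *Nrp1* was at a median of 362 CPM in control and 425 CPM in Eed-cKO (0.10, adjusted p = 0.51) and *Nrp2* at 200 and 174 CPM (-0.06, adjusted p = 0.73). *Plxna1*, *Plxna4*, *Plxnb1* and *Plxnc1* are among the 15 members with an exon that overlaps another annotated gene. For *Plxnc1* that gene lies on the same strand, so strand cannot tell their reads apart. For *Plxna1*, *Plxna4* and *Plxnb1* it lies on the opposite strand. The strand of counting is not given in the sources used here, so their reads cannot be told apart from those of the overlapping gene either.

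In the netrin and Slit families the secreted ligands *Ntn1* and *Slit1* rose. *Ntn1* was at 17.5 to 29.4 CPM in control (median 23.8) and 21.8 to 59.8 CPM in Eed-cKO (median 28.7), with 4 of 9 Eed-cKO embryos above every control embryo (0.51 ± 0.17, adjusted p = 0.037). Its call was lost when control embryo 1, 2 or 5 or Eed-cKO embryo 3, 6 or 7 was left out (adjusted p up to 0.098), and without Eed-cKO embryo 3, which held the 59.8 CPM, its change was 0.37. *Slit1* rose from a median of 29.2 to 36.1 CPM (0.30 ± 0.09, adjusted p = 0.018), and 8 of 9 Eed-cKO embryos exceeded every control embryo, although without control embryo 3 its adjusted p was 0.051. Of the netrin receptors, *Unc5b* rose from a median of 10.5 to 15.1 CPM (0.60 ± 0.17, adjusted p = 0.019), a call lost without control embryo 3 (adjusted p = 0.053), and *Unc5d* fell from 127 to 100 CPM (-0.34 ± 0.09, adjusted p = 0.012). *Dcc* was at 101 to 166 CPM in control and 150 to 177 CPM in Eed-cKO, overlapping ranges whose difference of 0.22 ± 0.09 missed the threshold (adjusted p = 0.085). *Robo1*, *Robo2* and *Slit2* had changes of -0.09, -0.14 and -0.08 and did not pass.

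Without cluster 21, 17 of the 20 calls held, those of *Sema5b* (0.43, adjusted p = 0.082) and *Sema4f* (-0.30, adjusted p = 0.060) were lost, and *Epha2* had too few UMIs to be tested.

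Since the neuron clusters differ in their make-up, the test was repeated in the 13 shared clusters, where 10.1% of 14761 genes were called. There 11 members passed, 9 higher and 2 lower, and 8 of the 20 members called in all neurons were among them (6 higher, 2 lower). Of the 20, 19 could be tested there and all 19 kept their direction, as the plot of both fits shows. The shared clusters hold 4854 of the 5212 control and 3149 of the 4861 Eed-cKO neurons that gave the calls. The kept direction is therefore no independent check. *Epha5* fell by 0.68 (SE 0.11, adjusted p = 9.9e-05) and *Epha4* by 0.47 (SE 0.12, adjusted p = 0.011). *Efnb2* had a change of -0.33 that missed the threshold (adjusted p = 0.063), where its level was 49.1 to 72.5 CPM in control and 32.0 to 70.2 CPM in Eed-cKO. *Epha8*, *Sema3a*, *Ntn1*, *Slit1*, *Plxnd1* and *Plxnb2* rose by 0.74, 0.58, 0.54, 0.39, 1.14 and 0.26. The members called only with this restriction were *Efnb1* (0.52 ± 0.14, adjusted p = 0.013), *Dcc* (0.33 ± 0.10, adjusted p = 0.041) and *Plxnb1* (0.32 ± 0.09, adjusted p = 0.024), all of them higher in Eed-cKO. *Plxnc1*, *Plxna4*, *Plxna1*, *Sema4f*, *Unc5d*, *Sema3f*, *Sema5b*, *Unc5b*, *Ephb3* and *Efna1* did not pass there.

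**Figure D3:**
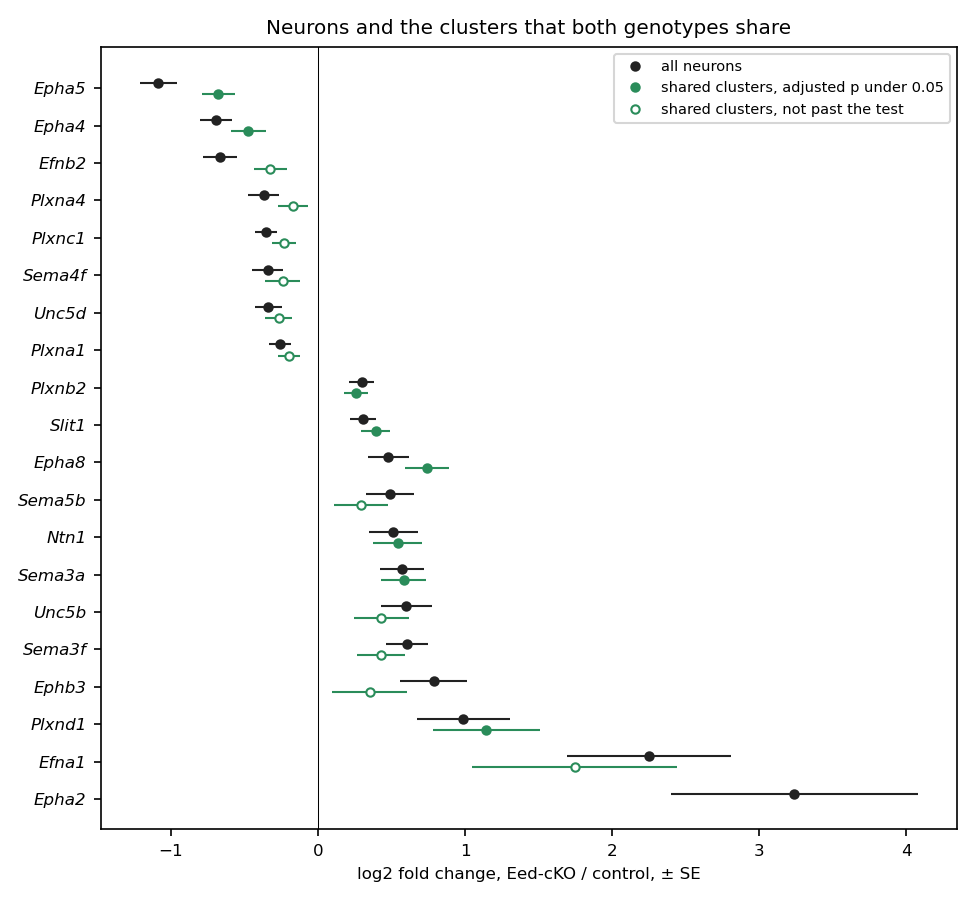
Fitted log2 fold change (Eed-cKO over control) ± SE of the 20 called members in all neurons (black) and in the 13 shared clusters (green, filled where the adjusted p is under 0.05). *Epha5* moves from -1.09 to -0.68 and *Efnb2* from -0.67 to -0.33, while *Epha8* moves from 0.48 to 0.74. *Epha2* was not tested in the shared clusters.

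The levels inside single clusters were described for the same members. In cluster 0, which hardly any control cell joined, *Epha5* had a median of 37.6 CPM over the 9 Eed-cKO embryos and *Efnb2* one of 15.9 CPM, both below the medians of 66.5 and 50.7 CPM in the shared clusters of the same embryos. In the mostly control cluster 16, *Epha5* had a median of 233 CPM over the 5 control embryos with enough cells. Pooling the cells of each genotype, *Epha5* was lower in Eed-cKO in 12 of the 13 shared clusters, *Efnb2* in 11 and *Epha4* in 10. The other lower members ranged from *Plxnc1* and *Unc5d*, lower in 11, through *Sema4f* in 9 and *Plxna4* in 8, to *Plxna1*, which was lower in 5 and higher in 8. *Ntn1* was higher in 12, *Dcc*, *Plxnb1* and *Sema5b* in 11, and *Sema3a* and *Slit1* in 10. In cluster 6, led by *Foxb1*, *Epha8* rested on 77 control and 213 Eed-cKO UMIs, at 38.1 and 108 CPM, and this was its highest level among the shared clusters in either genotype. In cluster 15, led by *Lhx6*, *Dcc* stood at 287 CPM in control and 646 CPM in Eed-cKO. These cluster values are pooled over embryos and were not tested. Markers of neighbouring regions also differed between the sums: 6 thalamus markers added up to 324 to 1039 CPM in control and 215 to 728 CPM in Eed-cKO neurons, 6 telencephalon markers to 75.7 to 177 and 111 to 226 CPM, and 3 measured pituitary markers of 6 to 0.157 to 2.42 and 4.22 to 47.8 CPM, with *Pou1f1*, *Gh* and *Prl* at 0 or not in the table. Their part in the result was not tested.

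The share of neurons with a UMI was described for the lower members. Every cell was thinned to 2000 UMIs, and the 257 control and 332 Eed-cKO neurons below that depth were not used. At this depth *Epha5* was seen in 15.3% ± 3.5 of control neurons (SD, n = 6) and 9.41% ± 1.2 of Eed-cKO neurons (n = 9). The unthinned shares were 32.4% and 18%, and in non-neural cells the thinned share was 3.04% in control and 0.831% in Eed-cKO. *Epha4* was seen in 10.4% ± 1.8 and 6.95% ± 1.8 of neurons, unthinned 22.4% and 15.2%, but non-neural cells stood at 11.8% and 10.0%. *Efnb2* was seen in 10.3% ± 1.5 and 7.0% ± 1.4 of neurons, unthinned 24% and 14.5%, with 17.5% and 27.2% in non-neural cells. Endothelial cells express both genes, at medians of 57.4 and 134 CPM in control, so for these 2 the non-neural share is no background. The UMIs per positive neuron were 1.31 and 1.21 for *Epha5*, so after thinning most positive neurons held 1 UMI. These shares were not tested.

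Neurons were next divided by the transporters that load transmitter into vesicles, with *Slc17a6* alone marking glutamatergic (Glut), *Slc32a1* alone GABAergic (GABA), both Glut/GABA, and cells without a UMI of either kept apart. The median share of the classes per embryo was 46.0% in control and 42.0% in Eed-cKO for Glut, 27.4% and 12.2% for GABA, 4.32% and 22.1% for Glut/GABA, and 21.6% and 21.1% for cells without transporter UMIs. A cell without a UMI may still express the gene, so the classes depend on depth. In Glut neurons (2393 control and 2047 Eed-cKO cells) 3 of 60 tested members were higher and 5 lower, where 4.72% of all genes were higher and 4.53% lower. Scaled by total counts only, the split was 5 higher and 2 lower, and with DESeq2 size factors 3 and 2. In GABA neurons (1315 and 594 cells) 7 of 57 were higher and 5 lower, against 4.91% and 5.53% of all genes. In Glut/GABA neurons (289 and 1068 cells) 1 of 60 was higher and 4 lower, against 2.9% and 1.56%. Control embryo 5 held 120 of the 289 control cells of this class, and each other control embryo 31 to 37. That embryo also held the largest library, with 1207 cells against 465 in the next. Eed-cKO embryo 2 held the fewest cells, 16 GABA and 20 Glut/GABA neurons, so its levels in these classes rest on few UMIs. In neurons without a transporter UMI (1215 and 1152 cells) 3 of 58 were called, 1 higher and 2 lower, against 5.81% of all genes in either direction. With library size alone this split was 2 and 1, and with DESeq2 size factors 2 and 2.

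*Epha5* was lower in Eed-cKO in all 4 classes. It fell by 0.94 in Glut (SE 0.13, adjusted p = 1.6e-05), by 1.26 in GABA (SE 0.17, adjusted p = 5.0e-07), by 1.51 in Glut/GABA (SE 0.19, adjusted p = 3.7e-07) and by 0.71 in cells without transporter UMIs (SE 0.19, adjusted p = 0.014). In the first 3 classes no Eed-cKO embryo overlapped a control embryo, with 75.0 to 138 CPM against 16.2 to 68.4 CPM in GABA neurons as an example. The 16.2 CPM came from Eed-cKO embryo 2, with 16 GABA neurons. *Epha4* fell in Glut (-0.70 ± 0.13, adjusted p = 7.6e-04), GABA (-0.72 ± 0.18, adjusted p = 0.0054) and Glut/GABA neurons (-0.64 ± 0.19, adjusted p = 0.044, a call lost when any 1 of 10 embryos was left out). *Efnb2* fell in the same classes, most in Glut/GABA neurons, where 37.2 to 93.9 CPM in control stood against 11.7 to 32.5 CPM in Eed-cKO without overlap (-1.35 ± 0.23, adjusted p = 1.6e-04). The 11.7 CPM came from Eed-cKO embryo 2, with 20 cells of this class. In GABA neurons the change of *Efnb2* was -0.75 ± 0.23 (adjusted p = 0.025), lost without control embryo 4 or Eed-cKO embryo 6, and in Glut neurons -0.42 ± 0.13 (adjusted p = 0.046), lost when any 1 of 12 embryos was left out. Within the shared clusters *Epha5* passed in Glut (-0.57), GABA (-1.07) and Glut/GABA neurons (-0.99), while *Epha4* and *Efnb2* did not pass in these classes.

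**Figure D4:**
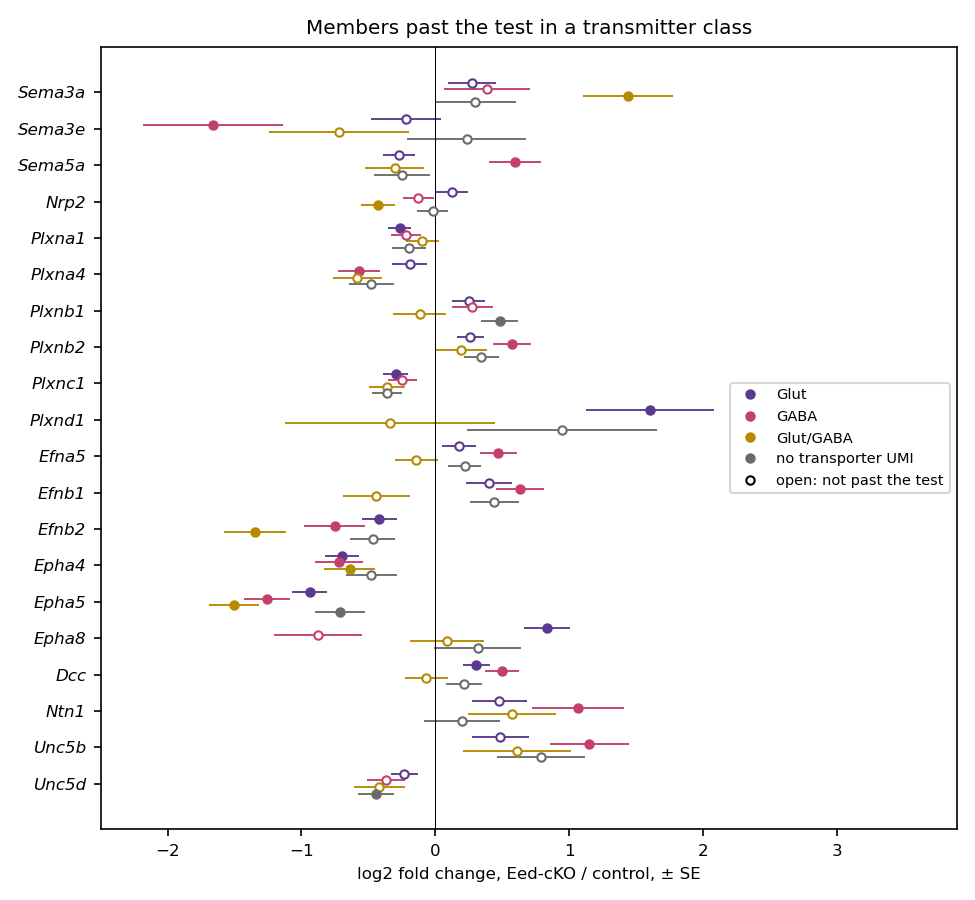
Fitted log2 fold change (Eed-cKO over control) ± SE of the members called in at least 1 transmitter class, with 1 colour per class, filled points for an adjusted p under 0.05 and open points for those not past it. *Epha5* is filled and below 0 in all 4 classes, while *Epha8* lies at 0.83 in Glut and -0.88 in GABA neurons.

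The higher members differed in where they passed. GABA neurons held 7 of them. *Plxnb2* was at 45.1 to 70.8 CPM in control and 66.3 to 128 CPM in Eed-cKO, with 8 of 9 embryos above every control embryo (0.58 ± 0.14, adjusted p = 0.0043). *Dcc* was at 101 to 175 and 97.1 to 251 CPM (0.50 ± 0.13, adjusted p = 0.0059), and *Efnb1*, a transmembrane ephrin, at 26.3 to 35.3 and 31.4 to 56.3 CPM (0.63 ± 0.18, adjusted p = 0.014). Both overlapped between the genotypes, and both calls, like that of *Plxnb2*, also held in the shared clusters (0.56, 0.98 and 0.67). *Unc5b* rose by 1.15 ± 0.29 (adjusted p = 0.0059) on 73 control and 65 Eed-cKO UMIs, *Ntn1* by 1.07 ± 0.34 (adjusted p = 0.035) on 78 and 67 UMIs, and *Efna5* by 0.47 ± 0.14 (adjusted p = 0.020). The *Ntn1* call was lost when any 1 of 5 embryos was left out. *Sema3e*, whose receptor is *Plxnd1*, was lower in GABA neurons on 75 control and 9 Eed-cKO UMIs (-1.66 ± 0.52, adjusted p = 0.031), a call lost when any 1 of 5 embryos was left out, and *Plxna4* fell there by 0.57 (SE 0.16, adjusted p = 0.013), lost without control embryo 2. In Glut neurons *Epha8*, *Dcc* (0.31 ± 0.10, adjusted p = 0.048) and *Plxnd1* (1.60 ± 0.48, adjusted p = 0.032) were higher and *Plxnc1* (-0.30, adjusted p = 0.047) and *Plxna1* (-0.27, adjusted p = 0.048) lower, and apart from *Epha8* each of these calls was lost when any 1 of at least 6 embryos was left out. In Glut/GABA neurons *Sema3a* was at 0 to 38.8 CPM in control (30 UMIs) and 25.1 to 52.4 CPM in Eed-cKO (264 UMIs), overlapping ranges with a change of 1.44 ± 0.34 (adjusted p = 0.0065). *Nrp2* was lower there (-0.43 ± 0.13, adjusted p = 0.048), a call lost when any 1 of 12 embryos was left out. Among cells without transporter UMIs, *Plxnb1* rose (0.48 ± 0.14, adjusted p = 0.030) and *Unc5d* fell (-0.45 ± 0.13, adjusted p = 0.038), with calls lost when any 1 of 8 and of 10 embryos was left out.

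Whether a genotype effect differs between GABA and Glut neurons was tested directly, with the embryo as a block. Only *Epha8* and *Sema5a* passed among 61 tested members, where 1.36% of all genes did. In Glut neurons *Epha8* was at 11.7 to 23.6 CPM in control (median 15.4) and 17.2 to 36.4 CPM in Eed-cKO (median 30.9), a rise of 0.83 ± 0.17 (adjusted p = 0.0022). In GABA neurons it was at 7.31 to 24 CPM (median 16.8, 126 UMIs) and 4.72 to 16.2 CPM (median 8.83, 26 UMIs), a change of -0.88 ± 0.33 that missed the threshold (adjusted p = 0.077). The 16.2 CPM came from Eed-cKO embryo 2, with 16 GABA neurons. The ranges overlapped in both classes, and the effect in GABA minus that in Glut neurons was -1.69 ± 0.34 (adjusted p = 6.9e-04). It passed without each of the 15 embryos and in the shared clusters (-1.58, adjusted p = 0.0072), but not when a class asked for 2 UMIs of its transporter (-1.10, adjusted p = 0.26) or after thinning (-1.63, adjusted p = 0.46). *Sema5a*, a transmembrane semaphorin, was at 54.3 to 79.2 CPM and 38.4 to 73.2 CPM in Glut neurons (-0.27 ± 0.12, adjusted p = 0.15) and at 22.5 to 53.9 CPM and 42.5 to 89.0 CPM in GABA neurons (0.60 ± 0.19, adjusted p = 0.038), with a difference of 0.88 ± 0.19 (adjusted p = 0.0021). In the shared clusters the difference was 0.29 (adjusted p = 0.77) and the change in GABA neurons was -0.05 (adjusted p = 0.95), so neither passed the test there. The *Sema5a* call in GABA neurons was also lost when any 1 of 6 embryos was left out.

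**Figure D5:**
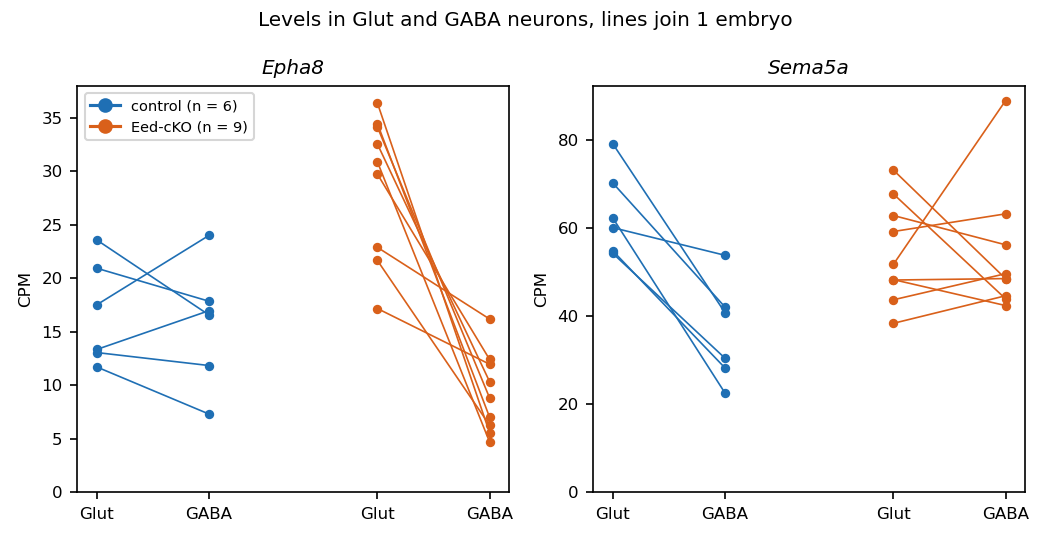
Level of *Epha8* (left) and *Sema5a* (right) in CPM on the y axis, in Glut and GABA neurons, with a line joining the classes of 1 embryo (blue: 6 control, orange: 9 Eed-cKO). *Epha8* has a median of 30.9 CPM in Glut and 8.83 CPM in GABA neurons of Eed-cKO embryos, against 15.4 and 16.8 CPM in control.

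The classes differed in guidance genes within each genotype too. In control embryos 4 of 59 tested members were higher in GABA than in Glut neurons and 9 were lower, against 2.92% and 4.89% of all genes. *Sema3c* (0.75), *Efna5* (0.49), *Unc5d* (0.48) and *Efnb3* (0.16) were higher in GABA neurons, and *Ntn1* (-1.58), *Epha7* (-1.12), *Epha10* (-1.06), *Sema5a* (-0.81), *Robo2* (-0.67), *Ephb6*, *Unc5c*, *Ephb1* and *Efnb2* lower. In Eed-cKO embryos 3 of 60 were higher and 12 lower, against 2.54% and 4.49%. *Efna5* (0.77), *Unc5d* (0.34) and *Efnb3* (0.20) were higher in GABA neurons, and *Epha8* (-1.76), *Epha7* (-1.59), *Epha10* (-1.34), *Robo2* (-0.92), *Ntn1* (-0.91), *Ephb1* (-0.90) and *Slit2* (-0.76) led the lower genes. *Epha8* did not pass between the classes in control embryos.

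The promoters of the members the results turn on are shown because PRC2 is known to bind stretches rich in CG dinucleotides, and capitals mark each CG, which reads the same on both strands. The windows run from 250 bases before to 50 after a RefSeq gene start on GRCm38.p6 and are written 5′ to 3′ on the gene's strand. *Epha5* lies at chr5:84054761-84417382, *Epha4* at chr1:77367185-77515088, *Efnb2* at chr8:8617434-8661242 and *Epha8* at chr4:136929419-136956816, all on the minus strand, as annotated by GENCODE vM21 on mm10.
Epha5 (chr5:84417333-84417632): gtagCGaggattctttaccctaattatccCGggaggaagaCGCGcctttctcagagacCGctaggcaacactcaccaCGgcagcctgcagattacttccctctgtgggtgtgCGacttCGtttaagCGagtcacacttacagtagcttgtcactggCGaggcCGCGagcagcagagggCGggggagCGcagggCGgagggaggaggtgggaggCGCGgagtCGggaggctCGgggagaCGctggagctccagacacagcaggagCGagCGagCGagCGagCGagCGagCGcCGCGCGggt
Epha4 (chr1:77515039-77515338): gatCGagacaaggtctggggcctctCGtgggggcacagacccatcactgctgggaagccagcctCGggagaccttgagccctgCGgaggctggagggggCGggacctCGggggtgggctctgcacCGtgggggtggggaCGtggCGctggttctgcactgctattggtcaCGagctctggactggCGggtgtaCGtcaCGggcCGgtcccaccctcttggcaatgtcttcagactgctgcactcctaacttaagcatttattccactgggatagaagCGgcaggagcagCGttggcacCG
Efnb2 (chr8:8661193-8661492): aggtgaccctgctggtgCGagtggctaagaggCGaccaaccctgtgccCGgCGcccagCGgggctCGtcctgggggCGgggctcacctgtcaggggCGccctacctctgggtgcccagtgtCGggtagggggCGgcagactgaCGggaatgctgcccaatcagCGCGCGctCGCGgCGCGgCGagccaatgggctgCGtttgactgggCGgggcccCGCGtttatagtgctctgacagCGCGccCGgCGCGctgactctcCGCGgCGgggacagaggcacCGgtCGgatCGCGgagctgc
Epha8 (chr4:136956767-136957066): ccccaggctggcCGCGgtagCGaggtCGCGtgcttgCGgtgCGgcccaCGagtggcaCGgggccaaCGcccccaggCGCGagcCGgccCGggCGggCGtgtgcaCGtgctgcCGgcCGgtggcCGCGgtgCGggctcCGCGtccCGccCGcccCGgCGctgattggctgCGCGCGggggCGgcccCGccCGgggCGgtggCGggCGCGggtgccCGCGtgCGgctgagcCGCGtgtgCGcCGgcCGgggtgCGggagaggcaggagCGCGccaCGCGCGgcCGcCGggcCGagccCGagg
The window of *Epha5* holds 30 CG, that of *Epha4* 17, that of *Efnb2* 35 and that of *Epha8* 56. Of the 64 members 54 had a RefSeq window, with a median of 23 CG against 7 over 27025 genes, and 85.2% of the members held at least 10 CG against 43.9% of all genes. At least 1 CG was found in 100% and 94.2% of the windows. The 9 windows of members higher in Eed-cKO neurons had a median of 23 CG, the 5 of lower members 30, and the 40 of members not called 20. These counts describe the sequence alone, since neither PRC2 binding nor histone marks were measured.

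The partners of these proteins in the growth cone were followed with a list of 73 co-receptors, adhesion proteins and cytoskeletal effectors. Of 72 tested in neurons, 5 were higher and 15 lower in Eed-cKO, where 9.24% and 7.92% of all genes were, with a median log2 fold change of -0.08 against 0.01 for all genes. *Ntng1*, a membrane-held netrin relative, fell by 0.92 (SE 0.18, adjusted p = 9.1e-04), *Flrt2*, a ligand of Unc5 receptors, by 0.77 (SE 0.12, adjusted p = 5.8e-05), *Rgma*, a repulsive ligand of neogenin, by 0.50 (SE 0.10, adjusted p = 9.0e-04), and *Arhgef11*, a partner of plexin-B receptors, by 0.47 (SE 0.12, adjusted p = 0.0087). The adhesion molecule *L1cam*, which supports axon growth, was at 445 to 549 CPM in control and 277 to 414 CPM in Eed-cKO, without overlap (-0.49 ± 0.08, adjusted p = 9.8e-05). Without overlap too were the lower levels of *Gap43*, *Crmp1* and *Dpysl2*, proteins of the growth cone, and *Arhgef11*. *Boc*, a receptor for axon guidance by Shh, rose by 1.60 ± 0.41 (adjusted p = 0.0088) on 18 control and 49 Eed-cKO UMIs. *Fes*, a kinase in semaphorin signalling, rose by 1.25 ± 0.41 (adjusted p = 0.035) on 15 and 32 UMIs. Both were at the edge of detection, with control medians of 0.598 and 0.491 CPM, and their ranges overlapped. Also higher were *Wnt5a*, a secreted guidance ligand, by 0.85 ± 0.16 (adjusted p = 3.8e-04), *Mical1*, an enzyme that takes actin filaments apart downstream of plexins, by 0.47 ± 0.16 (adjusted p = 0.044), and *Evl*, an actin regulator, by 0.28 ± 0.08 (adjusted p = 0.019). *Wnt5a* alone of these rose without overlap, from 7.60 to 12.9 CPM in control to 14.6 to 29.7 CPM in Eed-cKO. In the shared clusters, where 10.1% of all genes were called, 1 gene of this list was higher and 10 were lower.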

How the data were processed

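Raw UMI counts, genes by cells, were deposited by the authors as 1 table joined over libraries, from hypothalamus cells of 6 control and 9 Eed-cKO embryos at E18.5. The submitters' processing notes name STAR 2.5.2b, SAMtools 1.3 and mm10, and the strand of counting is not given in the sources used here. Cells under 600 UMIs had been removed by the authors, and no doublets were removed here except in an alternative. Neuron sums held 4093364 to 6658162 UMIs per control embryo and 486872 to 4989913 per Eed-cKO embryo, so low genes are less certain in Eed-cKO.

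Clusters were built in scanpy 1.11.5 with leidenalg 0.10.2 (10000 per cell, 2000 variable genes, 30 components, 15 neighbours, resolution 1, seed 0) and named from marker lists. Neuron names rest on these rebuilt clusters, and 2 clusters with few UMIs per cell stayed unnamed and out of the neurons. Counts of the libraries of 1 embryo were added. Genes with at least 15 UMIs over the embryos and 2 in 1 embryo entered the quasi-likelihood test of edgeR 4.0.16 (R 4.3.3, TMM, Benjamini-Hochberg over all genes tested). Embryos entered a class with at least 10 cells. Levels of embryos in neurons and classes are CPM of the TMM-scaled totals, while those of cell types, clusters and marker sums use plain UMI totals. The SE is the log2 fold change divided by the square root of F. Intervals cover counting error only. Fits of limma 3.58.1 and DESeq2 1.42.0 were alternatives.

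On simulated data for the neuron comparison, the test found 87.0% of 200 genes changed by known folds, out of 15063, and 7.94% of its calls were false. For the difference between GABA and Glut neurons it found 70.5% of 200, out of 14448, with 3.42% false. The simulated folds were larger than most of the changes called here, and genes with few UMIs were not among the changed ones. These shares therefore do not give the power for the changes reported.

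The members, the lists and the tests were chosen with earlier results of these data known. The named members are those called in neurons, the most abundant of each family, those called in the difference test and the 3 largest further changes of each class. Other members named beside them were chosen after their values were seen. From the growth cone list the 5 largest called changes in each direction are given.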

Additional observations from a re-analysis of the deposited data

Results flagged for a closer look

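Over the 30 named members, 60 groups of embryos in neurons were checked for 1 embryo that stands far from the rest, with Dixon's 95% limit, and 4 exceeded it. Chance alone exceeds it in about 1 in 20 groups. *Ntn1* was at 59.8 CPM in Eed-cKO embryo 3, far above the other Eed-cKO embryos. *Efnb1* was at 18.8 CPM in Eed-cKO embryo 8, far below the others of its group. *Nrp2* was at 124 CPM in control embryo 5, below the other control embryos. *Epha2* was at 0.499 CPM in control embryo 4, the only control embryo with a UMI of the gene.

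The effect of genotype differed between GABA and Glut neurons for 2 members in edgeR's quasi-likelihood test of the difference itself. The effect in GABA minus that in Glut neurons was 0.88 for *Sema5a* and -1.69 for *Epha8* on the log2 scale.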

How the results depend on the processing

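In neurons, the 20 called members became 6 with limma-voom and TREAT at a log2 change of 0.18, 10 after thinning to 2000 UMIs and 11 in the shared clusters, and stayed within 1.5 times under the other settings (14 to 23 with 1 embryo left out). Over all genes the 2616 calls became 1011, 1321 and 1485 in these fits, 4751 with each library as a sample and 4079 with all neural cells. In Glut neurons the 8 became 5 of 60 with DESeq2 size factors, 4 of 56 with a median log-CPM filter and 5 of 60 with DESeq2. They became 3 of 60 with TREAT and 5 of 60 with 2 UMIs of the transporter (3 to 9 with 1 embryo left out). Of all genes, 8.79%, 9.27%, 9.01%, 2.63% and 6.01% were called in these fits. After thinning 2 of 57 members were called against 3.81% of all genes, and in the shared clusters 2 of 59 against 4.39%. In these 2 fits the members stood near the share of all genes. With DESeq2 size factors, with DESeq2 and with the median log-CPM filter they stood near or below it too. In GABA neurons the 12 became 2 of 57 with TREAT, 3 of 51 after thinning and 7 of 57 in the shared clusters (9 to 14). Of all genes, 5.77%, 3.97% and 7.8% were called there. In Glut/GABA neurons the 5 became 3 of 60 with TREAT, 1 of 51 with 2 transporter UMIs and 2 of 53 in the shared clusters (3 to 7). Of all genes, 2.04%, 0.882% and 1.31% were called there. After thinning only 1 control embryo had enough cells of this class, so no count is given for that fit. Among neurons without transporter UMIs the 3 became 5 of 64 without a gene filter (5.19% of all genes). With TREAT they became 0 of 58 (2.12% of all genes), 10 at an unadjusted p under 0.05 (0 to 5 with 1 embryo left out). The 2 differences between GABA and Glut neurons became 0 of 57 with edgeR after thinning (5 at an unadjusted p under 0.05) and 5 of 59 in the shared clusters (2 to 3). Of all genes, 0.498% and 1.95% were called there. GABA against Glut gave 11 to 14 in control and 11 to 15 in Eed-cKO with 1 embryo left out. The 20 called growth cone genes became 11 in the shared clusters, 7 with TREAT, 34 with each library as a sample and 30 with all neural cells. Direction turned for *Sema5a* in GABA neurons in the shared clusters (-0.0499 ± 0.25), and in Glut/GABA neurons for *Nrp2* with 2 transporter UMIs (0.16 ± 0.24). Both changes were smaller than their SE. In Glut/GABA neurons it also turned after thinning for *Epha4* (0.11) and *Nrp2* (0.85). That fit had only 1 control embryo, so it does not settle the direction. Thinning, TREAT and the shared clusters test fewer UMIs, larger changes and fewer cells by construction, and other causes were not tested. The genotypes could not be compared in pairs, because no litter, as read from the library names, held both. The shared clusters, cluster 21 left out, the low-UMI clusters and the largest library left out were chosen after seeing the data.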
